A study of Mus musculus with 2 samples.

Results

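The mitochondrial carriers are the SLC25 transporters, and their genes were taken as the protein-coding genes of the GENCODE M21 mouse annotation whose names begin with Slc25a. Slc25a37 and Slc25a38 were set apart, which left 45 of 21728 protein-coding genes on the autosomes and the X chromosome, counted by gene name. EP300, a histone acetyltransferase and transcriptional coactivator found at enhancers and promoters, had been mapped by ChIP-seq in whole livers of B6NCrl mouse embryos of both sexes at 14.5 days. The only group consisted of 2 libraries with no further treatment or genotype, replicate 1 and replicate 2. Both were made from livers ground and pooled over several dissections, and they carry the same biosample label, so differences between them may be technical. The measurements are peak positions and the authors' peak signal in their list of reproducible peaks, called optimal. In whole tissue, EP300 bound in fewer cells and less EP300 per cell cannot be told apart.

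Carriers of this family sit in the inner mitochondrial membrane and exchange nucleotides, phosphate, carboxylic acids, amino acids and cofactors between the matrix and the cytosol. They are built from repeats of a shared helical module and are imported through the TOM complex and the TIM22 pathway. The fetal liver is a blood-forming organ in which red cell precursors make heme, partly inside mitochondria. Beside them are cells of the hepatocyte lineage, which in the adult liver carries out the urea cycle, gluconeogenesis and fat metabolism. All 7 erythroid marker genes examined, Gata1, Klf1, Tal1, Slc4a1, Hba-a1, Hbb-bs and Alas2, had a peak within 20 kb, with a median strongest signal of 241. Of 6 hepatocyte markers, 5 had one, with a median of 20.4, and Ttr had none. The share over all coding genes was 38.6%, and the median over those with a peak was 56.8. No list gives read totals, so sequencing depth is unknown.

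Of the 40 peaks within 20 kb of the carriers, 27 held a GATA motif within 100 bp of the summit, or 67.5% (95% Wilson interval 52.0 to 79.9), against 74.7% of all optimal peaks. The sequences below, read from RefSeq's GRCm38.p6 assembly (mm10) on the plus strand, are the 201 bases around summits of strong carrier peaks described further on; windows that hold untranslated sequence are not shown. In the first group capitals mark the GATA motif, which is GATA with A or T before it and A or G after it, on either strand. Shown as examples, these are the 3 strongest peaks of Slc25a21 (chr12:57184517-57184717, chr12:57197773-57197973 and chr12:57186202-57186402) and the strongest of Slc25a42 (chr8:70201477-70201677), Slc25a51 (chr4:45407131-45407331), Slc25a45 (chr19:5884055-5884255), Slc25a30 (chr14:75773550-75773750) and Slc25a1 (chr16:17933655-17933855).
Slc25a21, intron, 12855 bp downstream of a start: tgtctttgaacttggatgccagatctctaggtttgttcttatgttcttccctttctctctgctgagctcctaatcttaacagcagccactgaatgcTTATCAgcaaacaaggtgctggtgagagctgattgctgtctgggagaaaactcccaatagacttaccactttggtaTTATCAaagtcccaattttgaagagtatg
Slc25a21, 401 bp upstream: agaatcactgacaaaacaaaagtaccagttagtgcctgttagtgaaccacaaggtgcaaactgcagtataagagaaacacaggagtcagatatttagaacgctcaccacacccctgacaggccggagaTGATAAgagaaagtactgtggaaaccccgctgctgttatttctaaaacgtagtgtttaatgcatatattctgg
Slc25a21, intron, 11170 bp downstream: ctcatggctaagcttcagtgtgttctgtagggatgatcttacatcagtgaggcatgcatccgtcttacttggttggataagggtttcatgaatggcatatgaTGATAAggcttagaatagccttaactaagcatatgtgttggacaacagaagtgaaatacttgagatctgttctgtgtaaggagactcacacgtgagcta
Slc25a42, intron, 10679 bp downstream: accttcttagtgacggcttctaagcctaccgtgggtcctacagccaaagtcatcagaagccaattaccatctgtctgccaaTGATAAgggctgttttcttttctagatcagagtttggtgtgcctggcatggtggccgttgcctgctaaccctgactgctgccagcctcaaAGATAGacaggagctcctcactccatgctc
Slc25a51, 1415 bp downstream: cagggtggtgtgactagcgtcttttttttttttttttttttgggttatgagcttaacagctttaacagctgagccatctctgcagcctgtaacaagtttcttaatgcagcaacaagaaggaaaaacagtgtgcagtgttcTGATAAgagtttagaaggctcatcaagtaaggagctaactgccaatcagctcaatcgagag
Slc25a45, intron, 5499 bp downstream: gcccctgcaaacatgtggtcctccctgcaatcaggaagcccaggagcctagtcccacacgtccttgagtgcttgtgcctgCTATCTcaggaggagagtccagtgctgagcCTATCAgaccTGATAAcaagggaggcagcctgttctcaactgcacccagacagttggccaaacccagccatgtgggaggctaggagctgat
Slc25a30, 1322 bp upstream of an internal start: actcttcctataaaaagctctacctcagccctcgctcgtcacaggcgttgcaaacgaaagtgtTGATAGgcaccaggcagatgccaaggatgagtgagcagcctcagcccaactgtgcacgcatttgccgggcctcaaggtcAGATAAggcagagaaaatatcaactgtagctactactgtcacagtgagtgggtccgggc
Slc25a1, 5536 bp upstream: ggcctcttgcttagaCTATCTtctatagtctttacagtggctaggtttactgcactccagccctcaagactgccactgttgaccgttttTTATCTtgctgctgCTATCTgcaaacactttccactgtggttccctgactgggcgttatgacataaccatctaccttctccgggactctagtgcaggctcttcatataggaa

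The start-site peaks of Slc25a11 (chr11:70647081-70647281) and Slc25a39 (chr11:102408515-102408715) are shown as examples of the peaks that had no GATA motif. Here capitals mark the CACCC box, CCNCNCCC, bound by KLF factors, and the SP1 motif, GGGCGG, on either strand; the motifs can overlap.
Slc25a11, 123 bp upstream: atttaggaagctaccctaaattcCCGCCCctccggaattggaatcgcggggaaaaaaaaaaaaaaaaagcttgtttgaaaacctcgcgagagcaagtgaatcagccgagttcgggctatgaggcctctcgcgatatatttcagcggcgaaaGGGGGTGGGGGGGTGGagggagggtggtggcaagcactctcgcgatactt
Slc25a39, 669 bp upstream: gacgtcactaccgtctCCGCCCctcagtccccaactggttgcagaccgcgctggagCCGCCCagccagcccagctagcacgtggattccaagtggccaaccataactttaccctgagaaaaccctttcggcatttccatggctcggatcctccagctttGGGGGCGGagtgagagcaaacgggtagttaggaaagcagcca

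EP300 peaks lay near a higher share of the carriers than of all coding genes in each window, but every interval on the carriers' share included the share of all genes. A transcription start site (TSS) was the start of any annotated transcript, and a gene had a peak when the summit of an optimal peak lay within the stated distance. Within 1 kb, 10 of the 45 carriers had a peak, which is 22.2% (95% Wilson interval 12.5 to 36.3), against 15.5% of all coding genes. Within 20 kb, 22 carriers did, or 48.9% (35.0 to 63.0), against 38.6%. Within 50 kb, 27 did, or 60.0% (45.5 to 73.0), against 53.7%. The intervals cover counting error over genes alone. The median distance to the nearest summit was 20994 bp over the carriers (29 to 789074 bp), against 40844 bp over all coding genes. The median number of other coding genes within 20 kb was 1.0 for carriers with and without a peak and for all coding genes.

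The peaks near the carriers were of moderate strength. Over the 40 peaks within 20 kb the median signal was 38.4, against 38.5 over all optimal peaks. Over the 22 carriers with a peak within 20 kb, the strongest peak had a median signal of 45.6 (14.96 to 203), against 56.8 over the 8386 coding genes with one. An interval on the carriers' median, taken from the ranked values, ran from 28.1 to 78.4 and included 56.8. Of the 22, 8 exceeded the median of all genes with a peak, and 0 exceeded 228, the lower bound of the strongest decile of all genes with a peak. The median number of peaks within 20 kb was 1.5 per carrier with a peak (1 to 5), against 2.0 (1 to 23). A single peak was found at 11 carriers, 2 peaks at 6, 3 at 3 and 5 at 2, namely Slc25a21 and Slc25a41.

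**Figure D1:**
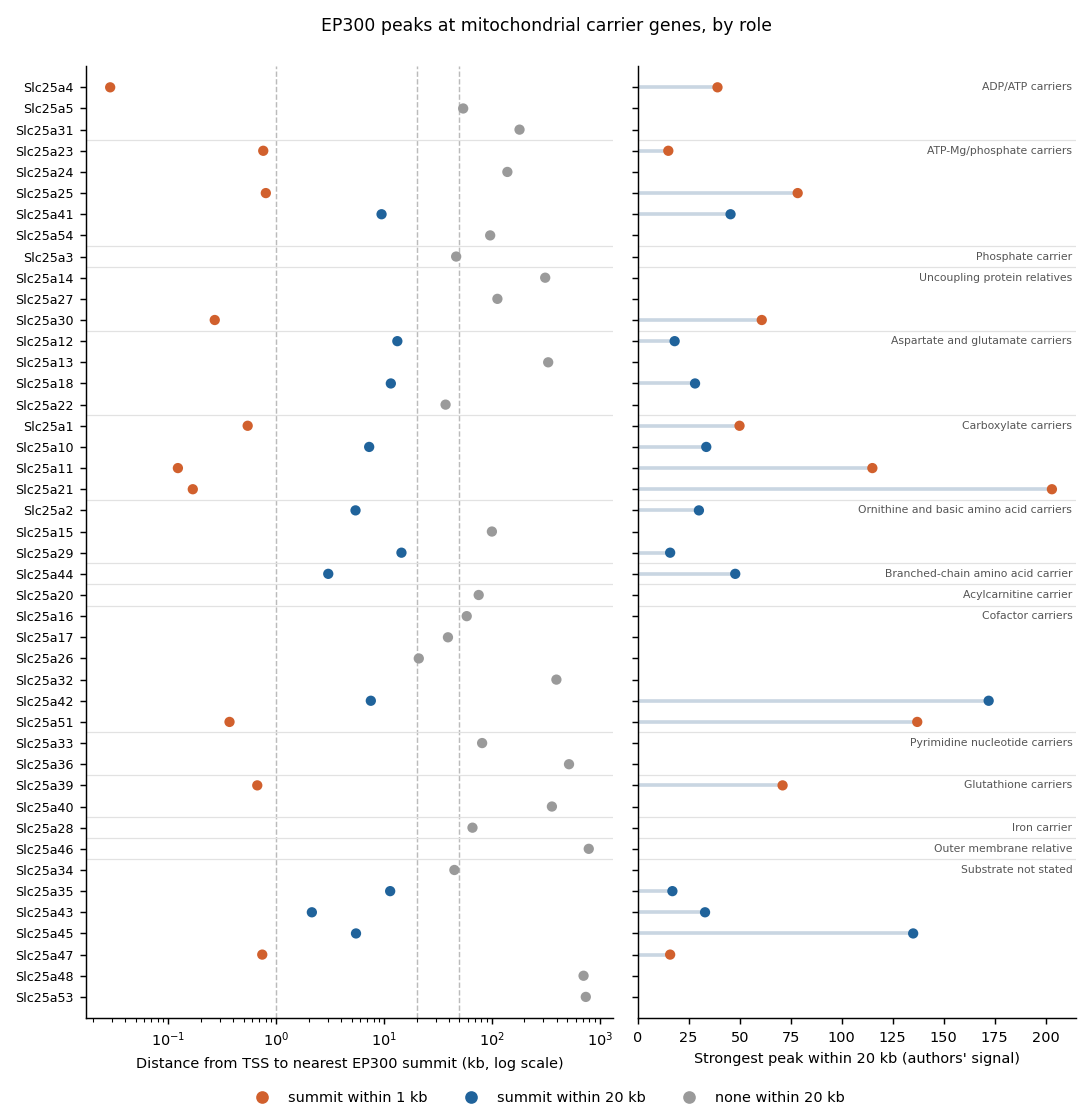
Distance in kb from a TSS to the nearest optimal EP300 summit (left, log scale, with dashed lines at 1, 20 and 50 kb) and the authors' signal of the strongest peak within 20 kb (right) for 44 carrier genes, grouped by role. The 10 genes with a summit within 1 kb are orange, the 11 with a nearest summit between 1 and 20 kb are blue and the 23 without one within 20 kb are grey; all 4 carboxylate carriers have a peak, led by Slc25a21 at 203.

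All 4 carboxylate carriers, which exchange di- and tricarboxylic acids across the inner membrane, had a peak within 20 kb (95% Wilson interval on the share 51.0 to 100%), against 38.6% of all coding genes, and 3 had one within 1 kb, against 15.5%. This is 1 of 15 role groups, chosen with earlier results of these data known, so its interval is descriptive only. With each peak given only to its nearest coding gene, Slc25a10 and Slc25a11 had none. Slc25a21, the carrier of oxoadipate and oxoglutarate, had the strongest peak within 20 kb of any carrier, with a signal of 203 in an intron (chr12:57184502-57184725). That peak ranked 1037 in replicate 1 and 1465 in replicate 2, so both libraries placed it high. A GATA motif lay on its summit. The peak 401 bp upstream of the first start had a signal of 124 and ranks of 2085 in replicate 1 and 3173 in replicate 2. The intronic peak at 11170 bp had a signal of 96.3, and the GATA motif there lay 2 bp from the summit. The remaining peaks of Slc25a21 had signals of 64.0 at 169 bp and 19.4 at 2788 bp downstream. No other coding gene had a TSS within 20 kb of any of these 5 peaks, and each held a GATA motif.

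Slc25a11, the oxoglutarate and malate carrier of the malate-aspartate shuttle, lies among 4 other coding genes within 20 kb. Its strongest nearby peak had a signal of 115 (chr11:70638862-70639201; rank 2776 in replicate 1 and 3339 in replicate 2). That summit was 6878 bp away, at the promoter of Gp1ba, a platelet glycoprotein gene. The peak 123 bp upstream of a Slc25a11 start (chr11:70647095-70647248) had a signal of 97.7, with rank 3727 in replicate 1 and 3393 in replicate 2. Its nearest TSS was that of the divergent neighbour Rnf167, a ubiquitin ligase gene. A peak of 83.2 lay at 1110 bp, inside Rnf167. The start-site peak held CACCC boxes, an SP1 motif and CCAAT, whereas the other peaks of this stretch held GATA motifs. The NFE2 and AP-1 motif TGANTCA was in both the start-site peak and the peak at 1110 bp.

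Slc25a1, the citrate carrier that exports acetyl units for fat synthesis, had its strongest peak upstream between genes (chr16:17933585-17933924), with a signal of 49.9 and ranks of 8275 in replicate 1 and 6355 in replicate 2. It held 3 GATA motifs, the nearest 3 bp from the summit. A weak peak of 18.6 lay 545 bp upstream of the gene, and only replicate 1 had a summit within 100 bp of it. Slc25a10, the dicarboxylate carrier, had 1 peak of 33.6 within 20 kb, 7284 bp upstream at the promoter of Mrpl12, a mitochondrial ribosome gene.

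Cofactor carriers held 2 of the 3 strongest peaks by gene, while 4 of the 7 had no peak within 20 kb. Slc25a42, the coenzyme A carrier, had a peak of 172 in its intron (chr8:70201465-70201673), with rank 1677 in replicate 1 and 1645 in replicate 2. Its window held 2 GATA motifs, 1 of them in the E-box with GATA arrangement described below, and 2 CCAAT motifs. A second intronic peak there was weak, at 12.9, ranked 42907 in replicate 1 and 67819 in replicate 2, and held none of the 12 motifs. Slc25a51, the NAD carrier, had a peak of 137 (chr4:45407160-45407286) in an exon of a noncoding transcript of the gene, with rank 2479 in replicate 1 and 2329 in replicate 2. In that window 44.3% of the bases were repeat-masked. Its other peaks had signals of 59.2 in an intron and 14.1 at 370 bp, the weakest found within 1 kb of any carrier.

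Of the cofactor carriers without a peak within 20 kb, Slc25a26, the carrier of S-adenosylmethionine, fell just outside the 20 kb window at 20994 bp. Slc25a17, a carrier of coenzyme A, NAD and FAD in peroxisomes, was 39116 bp from its nearest summit. Slc25a16, linked to coenzyme A transport, and Slc25a32, the folate and FAD carrier, had no peak within 50 kb.

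Among the 5 ATP-Mg/phosphate carriers, which set the adenine nucleotide pool of the matrix, 3 had a peak. Slc25a25 had a peak of 78.4 at 803 bp upstream (chr2:32452078-32452417), inside the gene body of Naif1, with rank 5015 in replicate 1 and 4033 in replicate 2. It held a CACCC box and an SP1 motif but no GATA motif, and 64.7% of its bases were G or C. A second peak of 18.9 lay 13373 bp upstream, and only replicate 2 had a summit within 100 bp of it. Slc25a41 had 5 peaks within 20 kb, the strongest of 45.5 in an intron of Khsrp, an RNA-binding protein gene (chr17:57027499-57027838). That peak ranked 8272 in replicate 1 and 6664 in replicate 2 and held 2 GATA motifs. For 4 of the 5, Khsrp was the nearest coding gene, and 3 of these lay at its promoter with signals of 43.6, 37.7 and 29.2. The peak of 29.2 overlapped both others there. The fifth was the peak of 14.96 that lay 760 bp upstream of Slc25a23. Slc25a24 and Slc25a54 had no peak within 50 kb.

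Of the 3 ADP/ATP carriers, which exchange the adenine nucleotides of oxidative phosphorylation, 1 had a peak. Slc25a4, whose product is best known from heart and muscle, had 1 peak with its summit 29 bp upstream of the start, the closest of any carrier. Its signal was 39.1, with rank 10290 in replicate 1 and 7841 in replicate 2, in a window with 71.1% G or C that held SP1 and CCAAT motifs. Slc25a5, the form of dividing cells, was 54136 bp from the nearest summit, and Slc25a31, expressed in testis, was 180136 bp away. The phosphate carrier gene Slc25a3 had a summit at 46596 bp.

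Of the 3 relatives of the uncoupling proteins, Slc25a30 alone had a peak within 20 kb. Its peak of 60.8 (chr14:75773480-75773819) lay in an intron, 1322 bp upstream of the start of a short noncoding transcript, and ranked 6212 in replicate 1 and 5429 in replicate 2. It was the only carrier peak with the estrogen-related receptor motif TCAAGGTCA, a sequence that 0.311% of all optimal peaks held. A weaker peak of 18.2 lay 270 bp from the same internal start, which is not the start of a coding transcript. Slc25a14 and Slc25a27, both most studied in brain, had no peak within 50 kb.

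The aspartate and glutamate carriers had weak peaks or none. Slc25a18, a glutamate carrier, had an intronic peak of 28.1 that ranked 48775 in replicate 1 and 10522 in replicate 2. Slc25a12, the aspartate-glutamate carrier of muscle and brain, had a peak of 18.1 between genes, 13284 bp from an internal start. No protein-coding transcript used that start, and the coding gene nearest to the summit was Dync1i2, at 8958 bp. Around the summit, 68.2% of the bases were repeat-masked. Slc25a13, the form of the hepatocyte that serves the urea cycle, was 332047 bp from its nearest optimal summit. The top peaks of replicate 2 alone did place a summit within 20 kb of Slc25a13. The glutamate carrier Slc25a22 was 37183 bp away.

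For other amino acids, Slc25a44, the carrier of branched-chain amino acids, had 3 peaks. The strongest, of 47.8, was at the promoter of Pmf1, a kinetochore gene (chr3:88410082-88410421), with rank 11583 in replicate 1 and 5030 in replicate 2. It held 1 GATA motif, an ETS motif and a YY1 motif. The others had signals of 37.7 and 33.2, and both held GATA motifs. The ornithine carrier Slc25a2 had a peak of 30.0 at the promoter of Taf7, a general transcription factor gene. Slc25a29, the carrier of basic amino acids, shared its peak of 15.9 with Slc25a47. Slc25a15, the ornithine carrier of the urea cycle, was 99895 bp from its nearest summit.

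Slc25a39, a glutathione carrier with a known part in heme synthesis, had a peak of 71.0 at 669 bp upstream (chr11:102408445-102408784). The libraries placed it differently, at rank 3338 in replicate 1 and 7327 in replicate 2. Its window held a CACCC box, SP1 motifs and the CACGTG sequence, but no GATA motif. A peak of 29.3 lay 3966 bp upstream. Within 50 kb Slc25a39 had 18 peaks, more than any other carrier, and the strongest of these, of 332, lay 40685 bp away at the promoter of Slc4a1, the red cell anion exchanger gene. Its relative Slc25a40 was 359408 bp from the nearest summit.

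Among carriers whose substrate is not stated here, 4 of 7 had a peak. Slc25a45 had a peak of 135 in its intron (chr19:5884074-5884240), ranked 2222 in replicate 1 and 2356 in replicate 2. With 3 GATA motifs within 100 bp of the summit, that window shared the highest count among the peaks within 20 kb of carriers with those near Slc25a1 and Gp1ba. A second peak of 17.5 was at the promoter of Tigd3. Slc25a43 had a peak of 33.0 between genes, 2144 bp upstream; no carrier without a peak within 1 kb had a nearer one. Slc25a35 had a peak of 17.0 at 11399 bp, whose nearest coding gene was Rangrf, at 4362 bp. Slc25a47, a carrier best known from liver, had a peak of 15.9 at 744 bp upstream of its coding transcripts. Slc25a34 had a summit at 44868 bp.

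The longest distances to a summit were those of Slc25a46, a relative in the outer membrane with a role in mitochondrial dynamics, at 789074 bp, Slc25a53 at 740832 bp and Slc25a48 at 706174 bp. No optimal peak lay within 50 kb of the acylcarnitine carrier gene Slc25a20, of the pyrimidine nucleotide carrier genes Slc25a33 and Slc25a36, or of Slc25a28, which encodes the iron importer mitoferrin-2. Taking the top peaks of replicate 2 alone added peaks within 20 kb of Slc25a13, Slc25a15, Slc25a20, Slc25a28, Slc25a31 and Slc25a32. Those of replicate 1 alone added peaks within 20 kb of Slc25a5, Slc25a15, Slc25a16 and Slc25a22. The best replicate 2 entry within 1 kb of Slc25a28 ranked 9796, whereas replicate 1 had no entry there. In all, 23 carriers had no peak within 20 kb, and 18 of these had none within 50 kb. At the edges of the windows, the carriers just inside were Slc25a25 at 803 bp, Slc25a29 at 14502 bp and Slc25a3 at 46596 bp, and those just outside were Slc25a43 at 2144 bp, Slc25a26 at 20994 bp and Slc25a5 at 54136 bp.

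**Figure D2:**
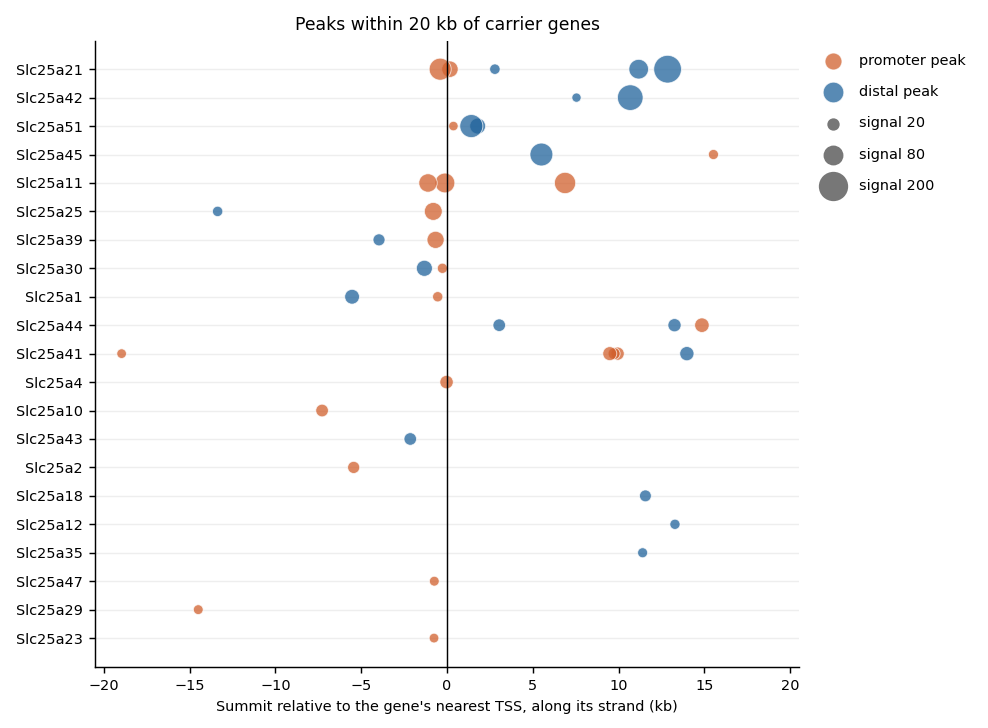
Optimal EP300 peaks within 20 kb of 21 carrier genes, at the distance in kb of its summit from the gene's nearest TSS along the gene's strand, with genes ordered by their strongest peak. Dot area grows with the authors' signal, and promoter peaks (summit within 1 kb of any gene's TSS) are orange and distal peaks blue; the largest dots are downstream of the starts of Slc25a21 and Slc25a42.

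The carrier genes had 11 distinct peaks within 1 kb, 40 within 20 kb and 95 within 50 kb. Of the 40, 21 were promoter peaks, with a summit within 1 kb of a TSS of any gene, which is 52.5% (37.5 to 67.1). The share was 35.3% over the 12049 optimal peaks within 20 kb of any coding gene. Some of the 40, such as those at the Khsrp promoter, overlap, so the peaks are not independent. Intervals on shares of these peaks do not allow for that. In the carriers' promoter set, 11 peaks lay at a carrier's own start and 10 at the start of another gene. Of the 19 distal peaks, 12 lay inside a carrier gene, and 11 were in introns, 6 between genes and 2 in noncoding exon sequence. A carrier was the nearest coding gene for 25 of the 40 peaks. When each peak was given only to its nearest coding gene, 14 carriers kept one within 20 kb, or 31.1%, against 27.2% of all coding genes. Counting distal peaks alone likewise left 14 carriers, or 31.1% (19.5 to 45.7), against 26.7%.

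Both libraries had a summit within 100 bp for 35 of the 40 peaks, or 87.5% (73.9 to 94.5), against 82.1% of the optimal peaks within 20 kb of any coding gene. Of the rest, 3 had a summit of replicate 1 only within that distance and 2 of replicate 2 only. Each library's list holds 300000 entries, so a matching summit can be a weak one. With only as many top peaks of each library as the optimal list holds, 26 of the 40 matched in both. That is 65.0% (49.5 to 77.9), against 64.1% of the optimal peaks within 20 kb of any coding gene. Among the 35, the rank in replicate 2 was a median of 1.03 times that in replicate 1 (0.216 to 3.84), and for 6 the ranks differed by more than 2-fold. Over all optimal peaks found in both, 17.2% differed that much. The authors' second list of reproducible peaks, called conservative, held 34 of the 40, or 85.0%, against 77.4% of the optimal peaks within 20 kb of any coding gene.

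**Figure D3:**
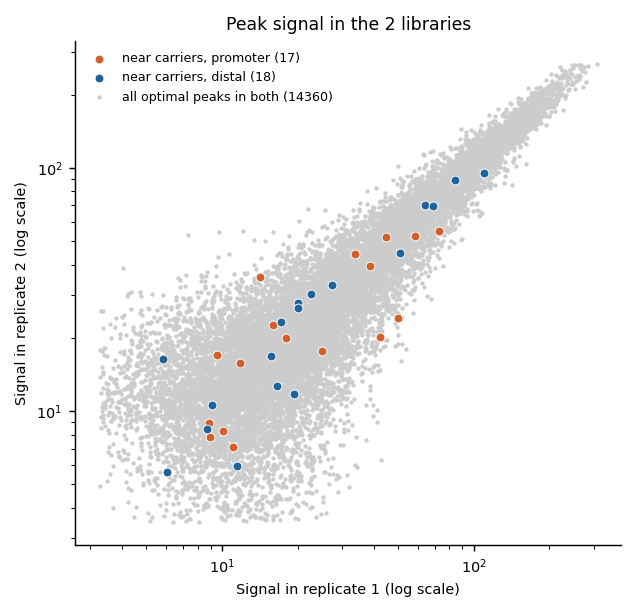
Authors' signal in replicate 1 (x, log scale) and replicate 2 (y, log scale) of the 35 peaks within 20 kb of carrier genes that both libraries had within 100 bp, promoter peaks in orange and distal peaks in blue, over all 14360 such optimal peaks in grey. The carrier peaks run from the weak end up to the Slc25a21 intronic peak at 110 in replicate 1 and 95.5 in replicate 2.

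The pooled list of 300000 entries, which reaches far weaker signals, was also read near starts. It had an entry within 1 kb of 29 carriers, or 64.4% (49.8 to 76.8), against 53.2% of all coding genes. Of the 35 carriers without an optimal peak within 1 kb, 19 had a pooled entry there, and 2 of these entries ranked within the length of the optimal list. They were Slc25a12, with a signal of 19.7 and rank 15251, and Slc25a22, with 18.4 and rank 16084. For 10 carriers neither the pooled list nor either library had any entry within 1 kb of a start.

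Most distal peaks near the carriers held a GATA motif, at about the frequency of distal peaks in general. Within 100 bp of the summit, 17 of the 19 distal peaks had one, or 89.5% (68.6 to 97.1), against 86.3% of 12570 distal optimal peaks. Among promoter peaks, 10 of 21 did, or 47.6% (28.3 to 67.6), against 42.1% of 4473. The arrangement of CTG with GATA 7 to 9 bases further on and an A or T before it, written here as E-box with GATA and bound by TAL1 with GATA1, overlaps the GATA motif. It was present in 6 of the 40 peaks, or 15.0% (7.06 to 29.1), against 32.8% of all optimal peaks. In distal peaks alone the counts were 4 of 19, or 21.1% (8.51 to 43.3), against 38.6%.

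GC-rich motifs were found mainly at promoters. SP1 motifs were present in 9 of 21 promoter peaks, or 42.9% (24.5 to 63.5), against 31.5% of all promoter peaks, and in 3 of 19 distal peaks, or 15.8% (5.52 to 37.6), against 5.57%. CACCC boxes were likewise present in 9 promoter peaks, against a share of 39.1% in general, and in 3 distal peaks, against 23.0%. The CCAAT motif of NFY was present in 10 of the 40 peaks, against 21.6% of all optimal peaks, and the CACGTG motif of MYC in 4, against 3.99%. The YY1 motif AANATGGC was in 3 peaks, or 7.50%, against 3.83%, and the ETS motif CCGGAAG in 2, or 5.00%, against 3.20%. The NFE2 and AP-1 motif TGANTCA was in 3 peaks, or 7.50%, against 7.58%. Neither GCGCATGC, the core of the motif of NRF1, a regulator of nuclear genes for mitochondrial proteins, nor the CRE motif TGACGTCA was in any of the 40 windows, against 0.552% of all optimal peaks for each.

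**Figure D4:**
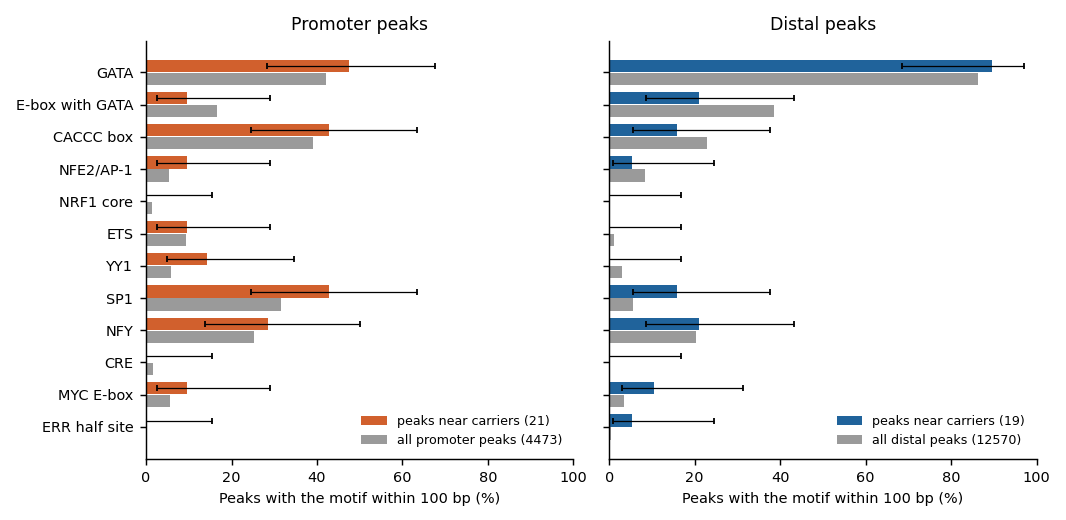
Share in percent of peaks with each motif within 100 bp of the summit, for the 21 promoter peaks (orange) and 19 distal peaks (blue) within 20 kb of carrier genes, above all optimal peaks of the same kind (grey); lines are 95% Wilson intervals on the carrier peaks. GATA leads in distal peaks at 89.5%, and SP1 and CACCC boxes are more frequent in promoter peaks than in distal ones.

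The promoters themselves, taken as the 250 bases before and 50 after each start in RefSeq's GRCm38.p6 table, were GC-rich. The table had 45 promoters of 35 carriers, with a median of 59.7% G or C, against 57.0% over 20061 promoters of 16433 coding genes. SP1 motifs were present in 82.2% of the carrier promoters, against 48.0%, and CACCC boxes in 73.3%, against 58.1%. GATA motifs were present in 22.2%, against 25.2%. CCAAT was present in 48.9%, against 37.9%. In the 13 promoters of carriers with an optimal peak within 1 kb, 69.2% held SP1 motifs and 61.5% CACCC boxes. The shares were 87.5% and 78.1% in the 32 promoters of the other carriers. CCAAT and GATA went the other way, at 84.6% against 34.4% and 30.8% against 18.8%. Promoters of 1 gene overlap in part and are not independent.

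Other gene lists of the same organelle are given for comparison, with counts and no test. Over all coding genes, 38.6% had a peak within 20 kb, with a median strongest signal of 56.8 over those with one. Of 5 SLC25 proteins that go by other names, 3 had a peak within 20 kb, the strongest near Ucp3 with 313 and near Mtch2 with 118. The nearest summits to these genes were 5660 and 6810 bp away. The coding gene nearest to each peak is not given for these lists. Among 12 genes for the import of carriers, 8 did, or 66.7% (39.1 to 86.2), led by Timm10 with 512 and Tomm22 with 96.0. Their median strongest signal was 28.1. Among 16 other mitochondrial transporter genes, 8 had a peak, led by Abcb10, a transporter of red cell mitochondria, with 401, and Sfxn4 with 228, and the median was 147. Of the pair set apart by the rule, Slc25a38, the glycine carrier of heme synthesis, had 5 peaks within 20 kb and a strongest signal of 207, above that of every carrier counted here. Slc25a37, the erythroid iron importer mitoferrin-1, had no peak within 20 kb, and its nearest summit was 43556 bp away.

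**Figure D5:**
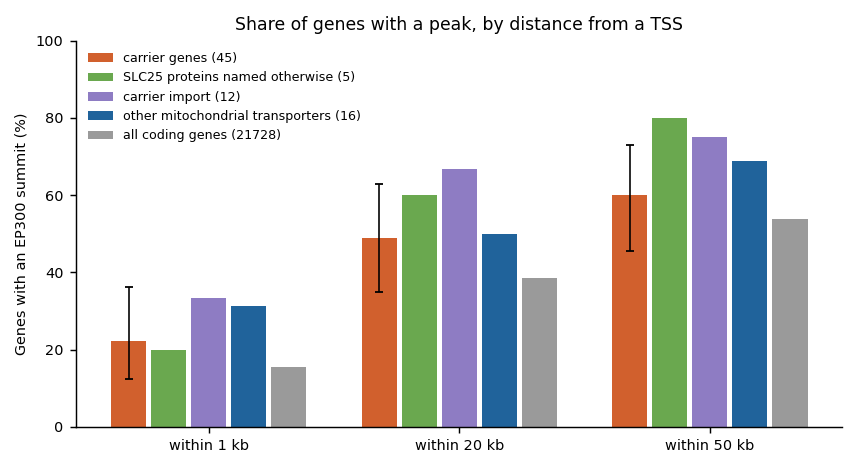
Share in percent of genes with an optimal EP300 summit within 1, 20 and 50 kb of a TSS, for the 45 carrier genes (orange, with 95% Wilson intervals) and, to their right, 5 SLC25 proteins named otherwise, 12 genes for carrier import, 16 other mitochondrial transporter genes and all 21728 coding genes (grey). The carriers stand at 22.2, 48.9 and 60.0%, and the share of all coding genes lies within each interval.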

How the data were processed

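EP300 ChIP-seq peaks from 2 libraries of 1 group were analysed as deposited by the authors, on mm10. Per the file listings deposited with the libraries, each library's list came from its own filtered alignments and a control, the pooled list from both, and the optimal and conservative lists from these. The sources used here name no aligner, peak caller or threshold. The authors' signal is the caller's value per peak, never negative and on a separate scale in each list; it was used to describe and rank peaks. Depth is unknown. The 17043 optimal peaks on 19 autosomes and X were used.

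Summits were set against all transcript starts of GENCODE M21 (python 3.11.15, pandas 2.3.3, numpy 2.4.6). Motifs were searched within 100 bp of the summit on both strands with pysam 0.24.0. Intervals are 95% Wilson intervals (statsmodels 0.14.6). Window counts and the motif search were tested on simulated data. No significance test was run: the design has 1 group, and shares are set beside those of all coding genes or peaks. The carriers, roles, comparison lists and motifs were chosen with earlier results of these data known. The rule for named genes took every carrier, in full the 12 with the strongest peak within 20 kb, and the strongest 2 of each other list; neighbouring genes were named where a peak lay at them. A carrier that the rule took is counted but not reported here by name. Alternatives changed the peak list, the starts, the assignment of peaks, the matching distance and the motif search, and left out each library.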

Additional observations from a re-analysis of the deposited data

How the results depend on the processing

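Of 35 alternative values, 30 stayed within 1.5 times the count reported or within the spread of the median. Restricting the optimal list to peaks above its median signal left 5 carriers with a peak within 1 kb, or 11.1%, against 7.18% of coding genes, and 13 within 20 kb, or 28.9%, against 5438 of the 21728 coding genes; such a list by construction holds fewer peaks. The conservative list gave 9, 24 and 30 carriers within 1, 20 and 50 kb; within 20 kb it added Slc25a15, Slc25a16 and Slc25a22 and lost Slc25a18. Within 20 kb, giving each peak to its nearest coding gene left 14 carriers, and counting distal peaks alone left 14. Asking for summits of both libraries within 25 bp left 20 of 40 peaks, and 250 bp gave 40. Taking as many top peaks of 1 library alone, which leaves out the other, gave 8 to 10 carriers within 1 kb, 23 to 24 within 20 kb and 29 to 32 within 50 kb. For replicate 1 alone the shares were 22.2, 51.1 and 64.4%, against 17.8, 40.5 and 55.1% of all coding genes. For replicate 2 alone they were 17.8, 53.3 and 71.1%, against 17.1, 39.8 and 54.7%. The genes were not all the same: within 20 kb replicate 1 alone shared 19 of the 22 carriers and replicate 2 alone shared 18, and Slc25a23 and Slc25a35 were lost in both, whereas Slc25a15 was gained in both. Using only the 5′ end of each gene record gave 8, 20 and 26 carriers in the 3 windows. These are 17.8, 44.4 and 57.8%, against 12.5, 33.8 and 50.1% of all coding genes. Slc25a30 and Slc25a47 then lost their peak within 1 kb, and Slc25a12 was among those that lost theirs within 20 kb. The gap between the carriers and all coding genes varied. It ran from 17.8% against 17.1% within 1 kb without replicate 1 to 53.3% against 36.6% within 20 kb in the conservative list. For the optimal list the intervals on the carriers include the share of all coding genes. No interval was computed for the other lists, so the same cannot be said of them. No paired analysis was possible because there was only 1 group. Depth is unknown, so a carrier without a peak may fall below what these libraries could detect.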
